A study of Mus musculus with 3 samples.

Results

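The cells described here are mouse aortic adventitial fibroblasts that carry at least 3 of the secreted-factor and hormone genes Esm1, Dio2, Smoc1, Gdf10 and Cytl1. They were chosen by their own counts: a cell had at least 2000 unique molecular identifiers (UMIs, each standing for 1 captured RNA molecule), at least 300 genes and at most 10% mitochondrial UMIs. It also had at least 1% of its UMIs in the fibroblast matrix genes Col1a1, Col1a2, Dcn and Lum, no UMI of the leukocyte gene Ptprc, and at least 1 UMI of 3 or more of the 5 markers. These cells are called members. There were 1383 of them among 22682 fibroblasts and 45241 cell barcodes: 167 of 6328 fibroblasts in Vehicle, 262 of 5966 in AngII and 954 of 10388 in AngII_VWR.

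The study profiled single cells of the adventitia, the outer coat of the aorta, which was stripped from the thoracic to the abdominal vessel, digested with Liberase and elastase and freed of red cells. Vehicle mice received saline, AngII mice received angiotensin II, the peptide hormone that raises blood pressure, and AngII_VWR mice received angiotensin II and had a running wheel (voluntary wheel running). Tissue of 3 mice was pooled in each group, so 9 mice gave 3 libraries. With 1 library per group there is no replicate and no test: a difference between groups is a difference between these libraries, and every 95% interval covers counting error only. The strain, age, sex, dose and duration are not given in the sources used here.

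Fibroblasts of the adventitia make the collagen and elastic sheath of the vessel and send signals to the smooth muscle, nerves and small vessels next to them. Esm1 (endocan) is a secreted proteoglycan best known from sprouting endothelium. Dio2, the type II deiodinase, turns the prohormone thyroxine into active triiodothyronine inside the cell. Smoc1 is a secreted calcium-binding matrix protein that counters bone morphogenetic protein (BMP) signalling, Gdf10 is a secreted member of the TGF-beta superfamily close to the BMPs, and Cytl1 is a small secreted protein.

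In the mm10 build the markers lie at chr13:113209659-113218098 on the + strand (Esm1), chr12:90724552-90738438 on the - strand (Dio2), chr12:81026808-81186414 on the + strand (Smoc1), chr14:33923587-33937983 on the + strand (Gdf10) and chr5:37735519-37739820 on the + strand (Cytl1). All are protein-coding genes in the GENCODE vM21 annotation. The stretches of 250 bases before the RefSeq transcription start (build GRCm38.p6) of the markers whose levels differed most between AngII_VWR and AngII are printed because these genes were high together in that library. They lie at chr12:90739039-90739288 on the - strand (Dio2), chr13:113209409-113209658 on the + strand (Esm1) and chr5:37735269-37735518 on the + strand (Cytl1), and each reads 5′ to 3′ toward its gene.
Dio2: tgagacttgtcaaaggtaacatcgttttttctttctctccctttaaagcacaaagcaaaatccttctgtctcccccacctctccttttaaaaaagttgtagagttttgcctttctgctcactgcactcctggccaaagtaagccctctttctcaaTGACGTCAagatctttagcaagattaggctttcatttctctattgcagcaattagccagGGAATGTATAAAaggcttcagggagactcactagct
Esm1: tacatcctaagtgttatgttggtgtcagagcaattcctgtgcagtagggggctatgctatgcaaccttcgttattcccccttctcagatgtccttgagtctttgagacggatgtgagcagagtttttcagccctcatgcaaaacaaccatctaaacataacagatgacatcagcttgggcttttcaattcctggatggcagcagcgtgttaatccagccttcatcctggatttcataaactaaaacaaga
Cytl1: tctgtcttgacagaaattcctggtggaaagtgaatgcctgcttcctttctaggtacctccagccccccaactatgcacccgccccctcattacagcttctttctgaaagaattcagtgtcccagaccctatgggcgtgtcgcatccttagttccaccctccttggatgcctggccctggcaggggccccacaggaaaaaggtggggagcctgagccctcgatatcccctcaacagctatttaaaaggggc

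Capitals mark the letters of the 5 motifs searched on both strands. In Dio2 these are the cAMP response element TGACGTCA, which starts 95 bases before the transcription start, the TEAD letters CATTCC on the opposite strand at 36 bases, and directly after them the TATA box TATAAA at 30 bases. The Esm1 and Cytl1 stretches hold none of the 5, and neither does the Gdf10 stretch. Among 32851 RefSeq stretches of the same length 1.55% hold TGACGTCA, 12.6% CATTCC, 12.4% TATAAA, 4.46% the AP-1 letters TGACTCA and 0.225% the GLI letters GACCACCCA. Such letters are a description of the sequence, and 4 of the 5 markers were found in the table.

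The libraries differed in depth. The files held 10515 to 19633 barcodes and 105679209 to 165977330 UMIs per library, and the median fibroblast held 12283.5 UMIs (Vehicle), 14021 (AngII) or 5517 (AngII_VWR). Members were deeper than the other fibroblasts of their library, with medians of 13759, 15811 and 7376 UMIs against 12249, 13947.5 and 5368.5. The 3 library pairs shared 44, 80 and 68 barcode sequences (10, 22 and 18 among fibroblasts) and no member barcode was shared. The AngII_VWR file was made with Cell Ranger 7.1.0 and the others with 7.0.1, so running, library and software version cannot be told apart. Doublets (2 cells under 1 barcode) were scored with Scrublet: 14.97%, 8.40% and 14.3% of the members were among the barcodes with the highest scores, against 14.1%, 8.64% and 17.8% of the other fibroblasts.

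The markers themselves, which chose the members, differed in level between the libraries when all fibroblasts were summed. Esm1 stood at 13.6 CPM (UMIs of the gene per 1000000 UMIs summed) in Vehicle (95% interval 12.8 to 14.4), 8.29 in AngII and 50.8 in AngII_VWR. Dio2 stood at 14.2, 13.9 and 57.1 CPM, and Cytl1 at 5.55, 4.01 and 13.4 CPM. These 3 genes were at or below the Vehicle level in AngII and highest in AngII_VWR. Smoc1 had another pattern, 11.6, 34.5 and 55.9 CPM, with AngII already well above Vehicle. Gdf10 was abundant throughout, at 384, 384 and 588 CPM. AngII over Vehicle was 0.608-fold for Esm1 (0.554 to 0.668), 0.985-fold for Dio2 (0.909 to 1.07) and 2.98-fold for Smoc1 (2.77 to 3.20). AngII_VWR over AngII was 6.13-fold for Esm1 (5.66 to 6.65), 4.09-fold for Dio2, 3.35-fold for Cytl1, 1.62-fold for Smoc1 and 1.53-fold for Gdf10.

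**Figure D1:**
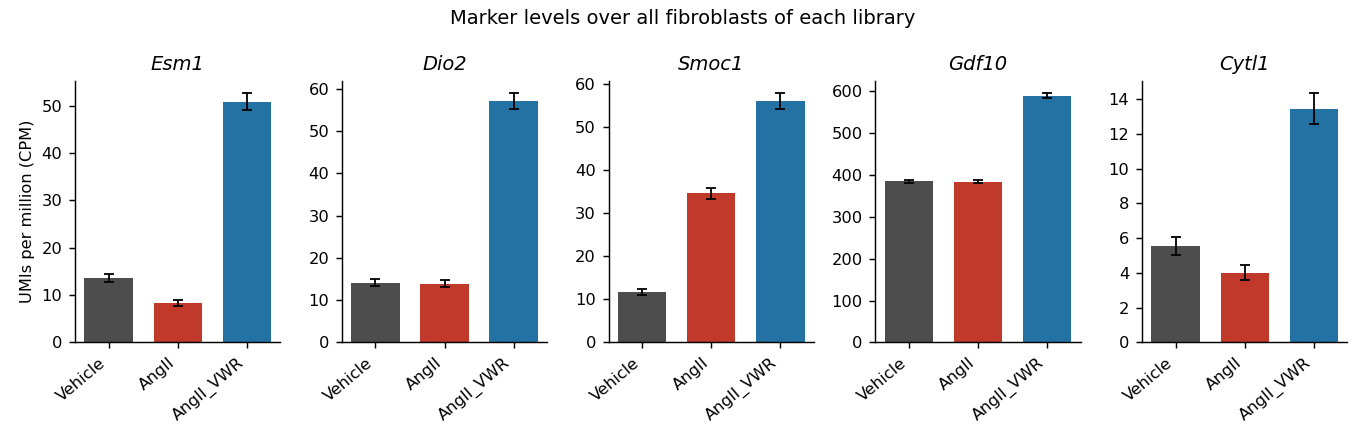
Level of each marker over all fibroblasts of a library in CPM (vertical axis, a scale of its own for each gene), 1 bar per library, with error bars for the exact 95% Poisson interval. Esm1, Dio2 and Cytl1 are highest in AngII_VWR and at or below Vehicle in AngII, whereas Smoc1 is already 2.98-fold higher in AngII.

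Gdf10 did little to select the members, since 75.3%, 76.5% and 73.9% of all fibroblasts held a UMI of it, and 97.6%, 98.9% and 98.8% of members did. Esm1 was found in 4.01%, 3.805% and 9.03% of fibroblasts, Dio2 in 8.04%, 9.47% and 14.97%, Smoc1 in 7.43%, 16.4% and 16.6%, and Cytl1 in 2.47%, 1.51% and 3.19%. Leukocytes of the same libraries (Ptprc with under 0.2% of UMIs in the matrix genes) were taken as a guide to what free RNA gives. They numbered 2721, 2278 and 2300 cells, with medians of 13637, 15401 and 6471.5 UMIs. Esm1 was found in 0.44%, 0.40% and 1.61% of them, Dio2 in 1.10%, 1.10% and 3.09%, Gdf10 in 14.5%, 12.2% and 23.5%, Smoc1 in 2.61%, 1.84% and 2.35%, and Cytl1 in 0.698%, 0.176% and 0.609%. Each of these shares lies below that of the fibroblasts, and that of Esm1 and Dio2 was also highest in AngII_VWR. In Vehicle leukocytes 71 cells held 179 UMIs of Smoc1 and 19 held 93 of Cytl1, against 12 UMIs in 12 cells for Esm1. Whether free RNA alone gave the Smoc1 and Cytl1 UMIs was not tested. Cytl1 is not particular to these cells: endothelial cells (107, 137 and 86) held 726, 186 and 338 CPM of it, more than members did. A UMI of Cytl1 was found in 30, 4 and 14 endothelial cells (28.0%, 2.92% and 16.3%), against 34.7%, 23.7% and 18.4% of members.

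In members the levels were 178, 93.3 and 296 CPM for Esm1, 126, 127 and 291 for Dio2, 106, 212 and 252 for Smoc1, 566, 833 and 1127 for Gdf10, and 96.5, 61.4 and 68.3 for Cytl1, in the order Vehicle, AngII, AngII_VWR. Fibroblasts with exactly 2 markers, just outside the rule, numbered 805, 1020 and 1806 and had 49.7, 19.5 and 75.1 CPM of Esm1. Those with exactly 3, just inside, numbered 143, 215 and 697 and had 162, 70.3 and 239 CPM. Cells with 4 markers numbered 24, 43 and 234, and cells with all 5 numbered 0, 4 and 23. The largest combination was Dio2 with Smoc1 and Gdf10, which made up 28.1%, 48.1% and 32.4% of members. Esm1, Dio2, Smoc1 and Gdf10 together were found in 4.19%, 8.02% and 19.0%.

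Because a deeper cell shows more markers, the shares were compared after each fibroblast had been thinned at random to 5000 UMIs, shallower cells left out. The rule was then met by 50 of 5104 Vehicle cells, 0.980% (exact binomial interval 0.728 to 1.29), by 94 of 5158 AngII cells, 1.82% (1.48 to 2.23), and by 525 of 5900 AngII_VWR cells, 8.90% (8.18 to 9.65). AngII_VWR stood far above the other libraries, with a share 4.88 times that of AngII (3.91 to 6.15), and AngII stood 1.86 times above Vehicle (1.31 to 2.68). Esm1, Dio2 and Gdf10 were also highest in the leukocytes of AngII_VWR, and the part of free RNA in these shares was not tested. Without thinning the shares were 2.64%, 4.39% and 9.18%, a ratio of 2.09 for AngII_VWR over AngII. The AngII over Vehicle ratio rests on Smoc1: with Smoc1 left out of the rule (2 of the other 4 markers) the shares were 5.76% and 4.96%, a ratio of 0.862 (0.726 to 1.02). AngII_VWR over AngII was 3.50 without Smoc1, 1.96 without Esm1, 1.87 without Dio2, 2.06 without Cytl1 and 4.565 without Gdf10. These settings ask for 2 markers, so they differ from the rule in strictness as well as in the gene left out. With all 5 markers kept and at least 2 required, the ratios were 2.04 for AngII_VWR over AngII and 1.455 for AngII over Vehicle.

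**Figure D2:**
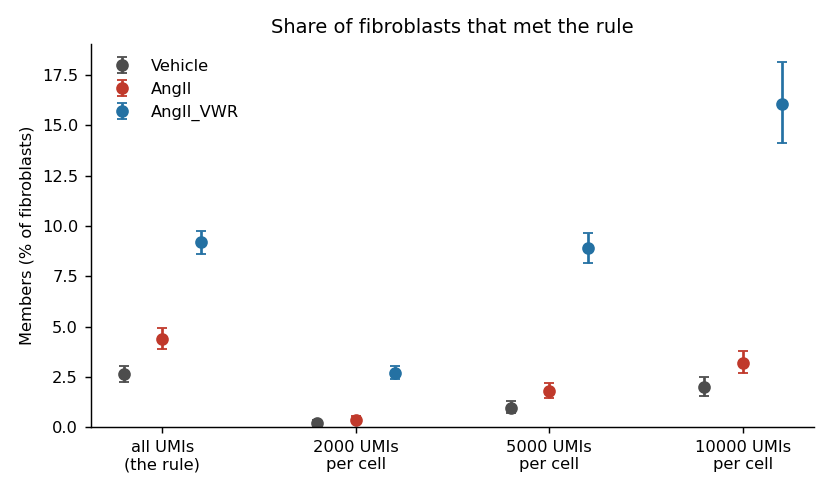
Share of fibroblasts that met the rule (vertical axis, % of fibroblasts) by UMIs kept per cell (horizontal axis), 1 point per library with the exact 95% binomial interval. At 5000 UMIs the shares are 0.980% in Vehicle, 1.82% in AngII and 8.90% in AngII_VWR, and AngII_VWR is highest at each depth.

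The markers were found in the same cells unevenly. At 5000 UMIs, Dio2 was found in 14.7%, 15.5% and 45.1% of the cells with Esm1, against 4.23%, 4.42% and 11.9% of the cells without it. Smoc1 was found in 19.5%, 39.6% and 44.0% of the cells with Cytl1, against 4.16%, 10.0% and 15.3% of those without. Smoc1 and Esm1 met less: 4.20% of Vehicle cells with Esm1 held Smoc1 against 4.39% of those without, while in AngII_VWR the shares were 35.0% and 14.1%. The part of free RNA in these shares was not tested.

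How far the members form a group was described on the other genes, with the 10 genes of the rule left out of the clustering. In the joint neighbour graph 37.6% of a member's nearest cells were members, against 4.05% of the nearest cells of other fibroblasts; members are 6.10% of all. With each library clustered on its own the value was 16.0% in Vehicle, 23.2% in AngII and 44.2% in AngII_VWR, where members are 2.64%, 4.39% and 9.18% of the fibroblasts, so members lay near each other in each library. The part of depth and of RNA from other cell types in these values was not tested. In AngII_VWR a single cluster of 981 cells held 493 members, 51.7% of them, and 50.3% of its cells were members. In AngII the fullest cluster held 109 members (41.6%) and in Vehicle 58 (34.7%), where members made up 14.0% and 5.25% of the cluster. Another 25 Vehicle members lay in a cluster led by macrophage genes (16.8% of its cells) and 11 in one led by smooth muscle genes (12.9%). No Vehicle member had a majority of members among its nearest cells, against 41.5% of those in AngII_VWR. No cluster made up mostly of members was found in Vehicle or AngII.

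Members also carried general fibroblast genes other than the matrix genes that the rule required. The receptor Pdgfra, a general fibroblast marker, was at 294, 233 and 260 CPM in members and at 233, 203 and 257 in other fibroblasts, with a UMI in 92.2%, 89.7% and 79.1% of members. Of 17 measured general fibroblast genes outside the rule, 3 were higher and 9 lower in members in all 3 libraries, none by 2-fold, with a median log2 ratio (of CPM + 1, averaged over libraries) of -0.11; the median of all 6268 genes measured in each library was 0.05. RNA of other cell classes was also present. The summed macrophage markers stood at 857, 294 and 633 CPM in members against 248, 250 and 739 in other fibroblasts, and smooth muscle genes (Myh11, Cnn1, Des, Smtn and Lmod1) at 278, 88.5 and 109 against 69.0, 47.7 and 62.2. Haemoglobin and other erythroid RNA stood at 3832, 1221 and 194 CPM against 2363, 618 and 263, and endothelial markers at 71.1, 83.4 and 92.7 against 73.3, 48.8 and 84.1.

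Cells rich in such RNA (at least 0.1% of UMIs in macrophage, endothelial or smooth muscle markers, or 1% in haemoglobin genes, limits chosen after the data were seen) made up 35 of 167 Vehicle members, 21.0%, against 3.05% in AngII and 8.91% in AngII_VWR. Among other fibroblasts they made up 4.85%, 2.19% and 14.2%, so in AngII_VWR the share was higher in other fibroblasts than in members. Of the 35 Vehicle members, 24 were over the macrophage limit, 8 over the smooth muscle limit, 5 over the haemoglobin limit and none over the endothelial limit. Among the member sums, that of Vehicle is therefore the least clean, and values without these cells are given where they differ.

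Next to other fibroblasts of the same library, members carried more RNA of the pericyte marker Rgs5, of the collagen IV chains Col4a2, Col4a3 and Col4a4 and of the hedgehog receptor Ptch1, and less of C3, Cd55 and progenitor genes. Since the members were picked on counts of the same cells, these are descriptions. A gene was counted where its log2 ratio passed 2-fold with at least 20 CPM and 10 UMIs in the higher sum. Of 6268 genes measured, 41 were at least 2-fold higher in members in all 3 libraries (0.654%) and 29 at least 2-fold lower (0.463%); without the cells rich in other RNA the counts were 49 and 33, of which 40 and 27 were shared.

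Rgs5, a regulator of G-protein signalling that usually marks pericytes and vascular smooth muscle, led the list. It stood at 132 CPM in Vehicle members, 65.8 in AngII and 297 in AngII_VWR, against 17.8, 7.48 and 16.2 in other fibroblasts, log2 ratios of 2.83, 2.98 and 4.11. Few cells carried it: 22.2%, 17.9% and 28.3% of members had a UMI, against 8.99%, 3.14% and 3.35% of others, and the 10 richest members held 84.1%, 73.3% and 34.5% of its UMIs. Without the cells rich in other RNA the Vehicle level was 12.4 CPM and its log2 ratio 0.62, while AngII and AngII_VWR kept 3.03 and 4.13. Rgs5 was thus high among members only in the AngII and AngII_VWR libraries once those cells were set aside. All 3 measured pericyte markers were higher in all 3 libraries, 1 of them, Rgs5, by 2-fold, with a median of 0.85. Kcnj8, a potassium channel subunit, stood at 146, 164 and 97.5 CPM against 91.9, 74.4 and 57.4. Below the limit for counting in at least 1 library, Notch3, a Notch receptor of mural cells, stood at 4.85, 18.7 and 42.6 CPM against 1.81, 5.82 and 6.28. Heyl, a Notch target, stood at 25.0, 17.1 and 32.2 CPM against 3.93, 4.91 and 5.75.

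Smooth muscle genes were the least certain. Acta2, smooth muscle actin, was at 1061, 169 and 275 CPM in members against 174, 70.7 and 91.3 in others, and Tagln at 792, 127 and 163 against 109, 67.0 and 50.9. Without the cells rich in other RNA, Vehicle members had 150 CPM of Acta2 and 95.2 of Tagln. With these cells left out of both classes Acta2 was still higher in members, at log2 ratios of 1.11, 1.26 and 1.78, and Tagln at 1.30, 0.93 and 1.87. Myh11, the myosin that defines mature smooth muscle, was at 0.924 and 2.34 CPM in AngII and AngII_VWR members, no higher than in other fibroblasts (0.973 and 3.07).

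Collagen IV chains, the network-forming collagens of basement membranes, were higher in members. Col4a3 stood at 144, 76.0 and 70.6 CPM against 36.2, 13.1 and 14.95, log2 ratios of 1.96, 2.44 and 2.17, and Col4a4, its partner chain, at 203, 180 and 177 CPM against 78.9, 40.8 and 43.4. Col4a2 stood at 217, 231 and 284 CPM against 91.8, 108 and 117, and Col4a1 at 367, 379 and 489 against 183, 201 and 214, its log2 ratios of 1.00, 0.91 and 1.19 lying about 2-fold. Of 18 measured collagen genes 7 were higher and 7 lower in all 3 libraries, and the 3 that passed 2-fold were Col4a2, Col4a3 and Col4a4; the median of the list was -0.03. Among 11 other basement membrane genes the picture was mixed. Lama2, a laminin chain, was at 967, 1028 and 1123 CPM against 557, 505 and 640, while Lamb1 was at 36.7, 14.1 and 9.88 against 102, 57.7 and 39.4 and was the 1 gene of that list past 2-fold lower.

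Ptch1, the hedgehog receptor and a target of its pathway, stood at 80.8, 72.8 and 68.3 CPM against 31.1, 25.5 and 23.1, log2 ratios of 1.35, 1.48 and 1.52. Hhip, a decoy that binds hedgehog ligands, stood at 355, 134 and 208 CPM against 158, 28.6 and 37.6, and a UMI of it was found in 73.7%, 45.0% and 45.9% of members against 36.7%, 10.47% and 10.6% of others. The transcription factor Gli1 stood at 54.9, 37.0 and 42.4 CPM against 32.2, 18.8 and 22.2, under 2-fold in each library. No list of hedgehog genes was counted. Hhip was chosen for mention after its values were seen, as were Col4a1, Gli1, Heyl, Notch3, Ccn2 and Timp3.

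Other genes higher in all 3 libraries were adhesion, signalling and protease-control genes. Ccdc3, a secreted protein, stood at 117, 179 and 198 CPM against 28.3, 41.8 and 36.8, and 47.9%, 61.5% and 55.1% of members held it against 16.6%, 20.4% and 13.1% of others. Serpine2, an inhibitor of thrombin and plasminogen activators, stood at 123, 201 and 147 CPM against 36.1, 51.8 and 42.9. Csmd1, a large membrane protein, stood at 645, 578 and 591 CPM against 88.6, 164 and 180, and in Vehicle 60.2% of its member UMIs lay in 10 cells. Lsamp, an adhesion molecule of the immunoglobulin family, stood at 695, 302 and 177 CPM against 195, 84.9 and 62.7. Itga8, an integrin chain, stood at 81.2, 52.4 and 50.2 CPM against 12.1, 14.7 and 16.8, and its log2 ratio without the cells rich in other RNA on either side was 1.40 in Vehicle. Fblim1, Tmem204, Prex2, Adcy7 and Frmd5 had log2 ratios between 1.20 and 2.30. Ccn2, a matricellular protein induced by stretch and TGF-beta, stood at 1087, 1122 and 1979 CPM against 507, 588 and 642, and Timp3, a metalloproteinase inhibitor, at 988, 1294 and 2243 against 622, 575 and 800.

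**Figure D3:**
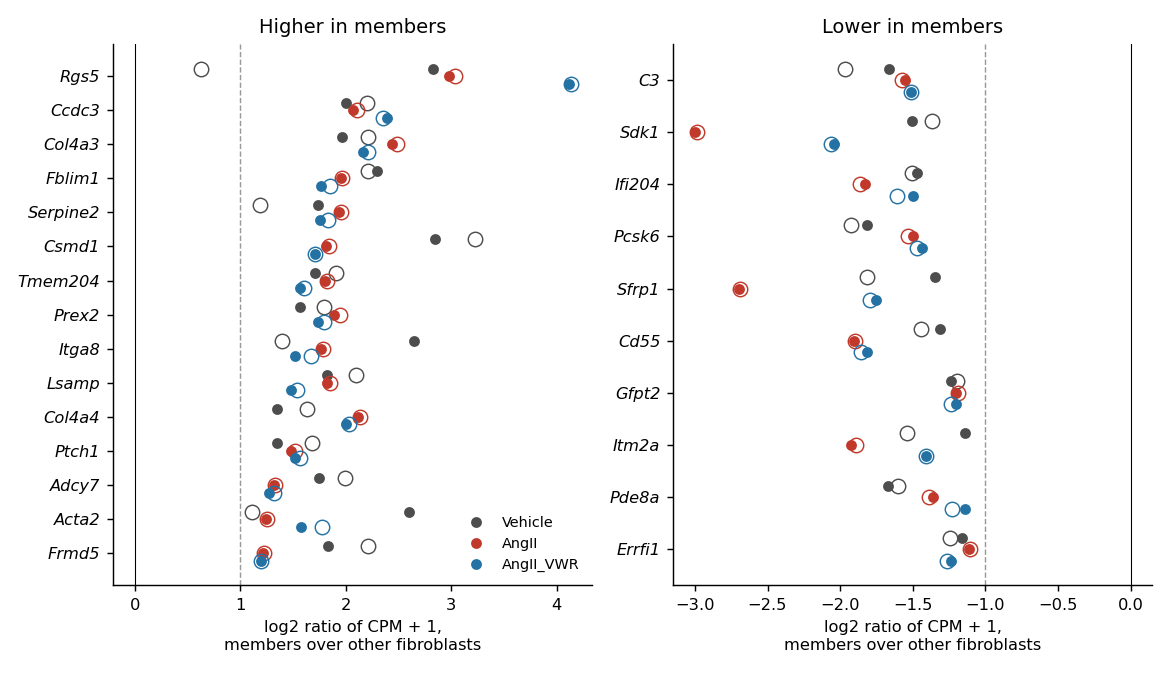
Log2 ratio of CPM + 1 of members over other fibroblasts of the same library (horizontal axis) for the 15 genes highest and the 10 lowest in the library where they stand out least, with 1 colour per library. Filled points use all cells, open points leave out cells rich in RNA of another class, and the dashed line marks 2-fold. Rgs5 in Vehicle moves from 2.83 to 0.62 when these cells are left out.

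The genes lower in members were led by complement C3, the central component of the cascade, at 401, 428 and 348 CPM against 1271, 1261 and 994, log2 ratios of -1.66, -1.56 and -1.51. Cd55, which shields cells from complement, stood at 174, 40.2 and 41.1 CPM against 434, 154 and 147. Of 14 complement genes measured, 6 were higher and 8 lower in all 3 libraries, with a median of -0.29; C3 and Cd55 were the 2 past 2-fold. Sfrp1, a secreted Wnt inhibitor, stood at 81.2, 88.0 and 158 CPM against 208, 576 and 537. Pcsk6, a convertase that activates TGF-beta family ligands, stood at 96.9, 58.9 and 69.4 CPM against 343, 168 and 189. Sdk1, Ifi204, Gfpt2, Itm2a, Pde8a and Errfi1 had log2 ratios between -3.00 and -1.11.

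Markers of adventitial progenitor-like fibroblasts were low in members. All 7 measured genes of that list were lower in all 3 libraries, 3 of them by 2-fold, with a median of -1.30; the list was drawn from earlier clusters of these same libraries and is no independent evidence. Pi16, its most abundant gene, stood at 2538, 1098 and 990 CPM against 4441, 1825 and 1584, and Dpp4, a membrane peptidase not among the 7 because it was below the limit in AngII_VWR, at 6.86, 2.08 and 3.12 against 64.6, 23.5 and 16.7. Sema3c, an axon guidance ligand, stood at 212, 55.7 and 58.0 CPM against 448, 151 and 154. Genes that respond to tissue digestion were slightly low: 20 of 29 were lower and 2 higher in all 3 libraries, none by 2-fold, with a median of -0.20.

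Few genes of the pathways named by the markers stood apart in all libraries. Of 6 measured BMP and TGF-beta ligands outside the rule, 3 were higher and 1 lower in all 3 libraries, and of 15 antagonists 6 and 4, none by 2-fold, with medians of 0.13 and 0.12. By library, 2 of 7 ligands measured were 2-fold higher in AngII members and 2 of 7 in AngII_VWR members: Gdf15, a stress-induced factor, at 38.1 and 30.7 CPM against 10.6 and 12.1, and Inhba, an activin subunit, at 25.9 and 20.2 against 11.0 and 9.40. In Vehicle 2 of 9 were 2-fold lower and none higher. Bmp4 stood at 74.7, 65.4 and 45.8 CPM against 55.0, 39.4 and 34.1, and the antagonist Chrdl1 at 126, 134 and 189 against 107, 69.6 and 90.2. Of 21 receptors, transducers and targets 10 were higher and 2 lower, with a median of 0.09. The type I receptor Bmpr1b stood at 50.9, 54.7 and 44.7 CPM against 18.7, 18.0 and 23.6, and Id1, a BMP target, at 135, 141 and 134 against 48.8, 58.3 and 78.5; both passed 2-fold in Vehicle and AngII and not in AngII_VWR. The chief BMP receptors Bmpr1a and Bmpr2 had log2 ratios between -0.05 and 0.24.

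Genes of thyroid hormone handling other than Dio2 were close to even: 5 of 10 were higher and 1 lower in all 3 libraries, with a median of 0.13. The nuclear receptors Thra and Thrb stood at 134, 151 and 121 CPM and at 154, 198 and 167 CPM in members, against 153, 165 and 132 and 83.1, 159 and 164 in others. Klf9, a target of the hormone, was at 375, 487 and 550 CPM against 426, 465 and 565. Thrb was higher in members in Vehicle and, less so, in AngII, and close to even in AngII_VWR. Thra was lower in each library, and Klf9 had no single direction.

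Several of the member genes followed the number of markers in a cell step by step, also among cells outside the rule. These genes were chosen because they differed between cells with at least 3 markers and the rest, so that step was set by the choice. Fibroblasts with 0, 1, 2, 3 and 4 or 5 markers had 17.1, 28.8, 78.7, 176 and 247 CPM of Ccdc3 in AngII_VWR, and 30.1, 32.4, 87.3, 158 and 266 in AngII. Col4a4 went from 22.7 to 225 CPM in AngII_VWR and from 61.8 to 290 in Vehicle over the same steps. C3 was high at 1 marker, 1128 CPM in AngII_VWR, and lower at each further step, at 682, 409 and 206. Cells with more markers were also deeper in AngII_VWR, with medians from 4875 UMIs at 0 markers to 8391.5 at 4, while in Vehicle these medians were 13527 and 12870. The part of depth in these steps was not tested.

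**Figure D4:**
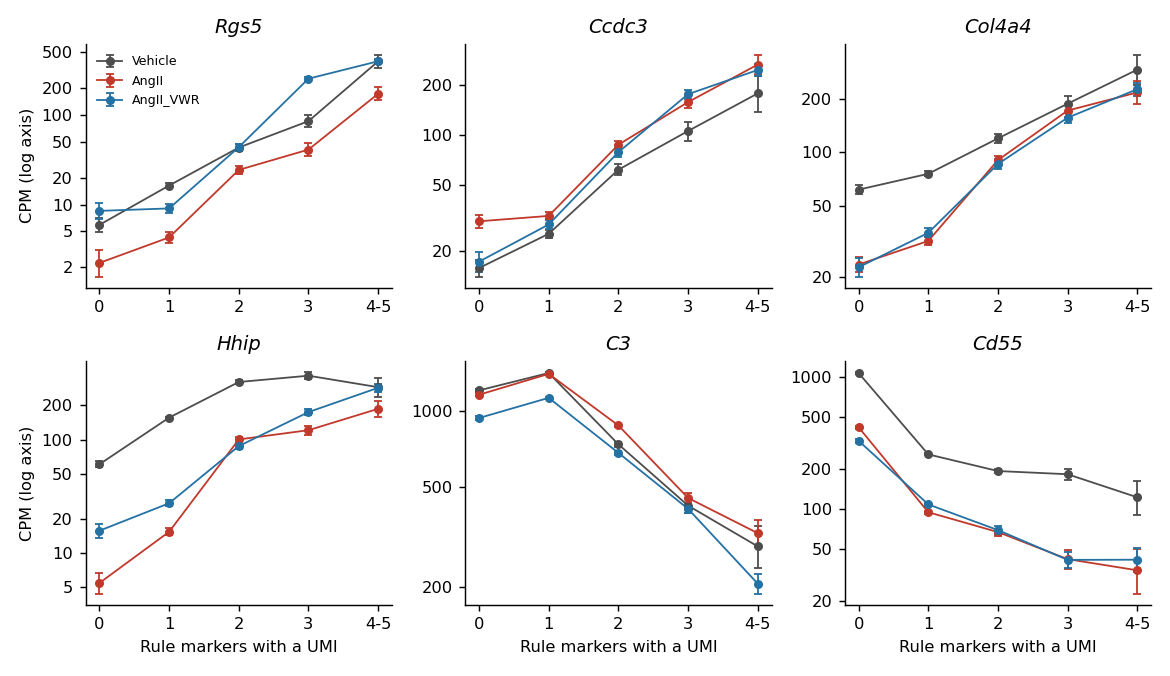
Level of 6 genes in CPM (vertical log axes) in fibroblasts that held a UMI of 0, 1, 2, 3 or 4 to 5 of the rule's markers (horizontal axis), 1 line per library, with exact 95% Poisson intervals. Ccdc3 in AngII_VWR goes from 17.1 to 247 CPM and C3 from 1128 at 1 marker to 206.

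Between the groups, AngII members differed from Vehicle members by higher Rbp4, Ccn3 and Angpt2 and by lower progenitor genes. The 2 sets also met the rule through different markers. Smoc1 was found in 61.7% of Vehicle and 82.4% of AngII members, and Esm1 in 44.3% and 36.3%. The part of this make-up in the differences below was not tested. Of 7007 genes measured in members, 146 were at least 2-fold higher in AngII (2.08%) and 157 lower (2.24%). Without cells rich in other RNA the counts were 167 and 176, but 122 and 106 of these were shared with the full sets. Of the 146, 141 had the same sign in other fibroblasts and 94 also passed 2-fold there; of the 157, 143 and 64 did. The median log2 ratio of all genes was -0.07 in members and -0.09 in others. The Vehicle sum holds 2476777 UMIs of 167 cells, so it is the smallest of the member sums.

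Rbp4, the plasma retinol carrier, stood at 503 CPM in Vehicle members, 1886 in AngII and 1813 in AngII_VWR. In other fibroblasts it stood at 322, 294 and 269 CPM, so the difference from Vehicle was seen in members and not in the rest. Its ratio AngII over Vehicle was 3.75-fold in members (3.53 to 3.98) and 0.914-fold in others (0.898 to 0.930), the share of members with a UMI was 73.7%, 84.7% and 83.9%, and the difference between members and others was not tested. Ccn3, a matricellular growth regulator, stood at 48.9, 349 and 330 CPM in members against 43.8, 183 and 82.1 in others, log2 ratios AngII over Vehicle of 2.81 and 2.04. Angpt2, a ligand of the vessel receptor Tek, stood at 17.0, 100.01 and 97.5 CPM, a log2 ratio of 2.49 in members and 2.20 in others.

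The activated, matrix-making genes of the AngII library were seen in its members, at a lower sum than in its other fibroblasts. All 9 measured genes of the activated fibroblast list were at least 2-fold higher in AngII members, with a median log2 ratio of 1.93. In other fibroblasts 10 of 10 were, with a median of 3.29. The list was also drawn from earlier clusters of these libraries, so these counts are no independent evidence. Its genes summed to 784 CPM in Vehicle members and 2367 in AngII members, against 473 and 3770 in others. Postn, a matricellular protein of wounds, stood at 44.0, 170 and 91.3 CPM in members and 53.2, 523 and 287 in others, and Col8a1, a short-chain collagen, at 57.7, 271 and 192 against 63.7, 595 and 384. Of 20 measured myofibroblast genes, a list that shares members with the last, 11 were 2-fold higher and 4 lower in AngII members, with a median of 1.19. Among the 4 lower were Acta2 and Tagln, at log2 ratios of -2.64 and -2.64; without cells rich in other RNA they were 0.18 and 0.45, so these 2 turned sign. Myh11 went from -5.88 to -2.46 and Fabp4, a fatty acid carrier of capillaries and adipocytes, from 2.47 to 1.51, with 89.1% of its AngII member UMIs in 10 cells.

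The inflammatory genes of the AngII library were also seen in members. Il6 stood at 91.2, 404 and 68.5 CPM in members and at 167, 628 and 82.3 in others. Of 19 cytokine and chemokine genes 8 were 2-fold higher and 3 lower in AngII members, with a median of 0.64, and in other fibroblasts 6 and 2 of 19, with a median of 0.73. All 7 measured progenitor genes were at least 2-fold lower in AngII members (median -1.91), as were 9 of 9 in others (median -1.49). That list came from earlier clusters of these libraries, so these counts are no independent evidence. Clec3b, a plasminogen-binding protein, stood at 2641, 718 and 809 CPM in members against 4120, 1546 and 1690 in others, and Ly6c1 at 634, 183 and 297 CPM. Apod, a lipid carrier, and Hmcn2, a matrix protein, were lower in AngII members by log2 ratios of -1.78 and -1.84 but by -0.07 and -0.30 in others.

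AngII_VWR members had lower Il6, Socs3, Tnfaip3 and interferon-response genes and higher protein-folding genes than AngII members. This comparison shares the AngII library with the one above. The AngII_VWR members were chosen at a lower depth, a median of 7376 UMIs against 15811. Esm1 was found in 54.3% of them against 36.3% of AngII members. The part of depth and of this make-up in the differences was not tested. Of 6955 genes measured, 93 passed 2-fold upward in AngII_VWR members (1.34%) and 124 downward (1.78%). Leaving out cells rich in other RNA gave 91 and 122, of which 85 and 114 were shared. In other fibroblasts 92 of the 93 and 121 of the 124 had the same sign, and 62 and 72 passed 2-fold. The median log2 ratio of all genes was 0.07 in members and 0.10 in others.

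Il6 was lower by a log2 ratio of -2.54 in members and -2.92 in others. Of 19 cytokine and chemokine genes 6 were above and 13 below AngII in members, 6 of them 2-fold lower, with a median of -0.13, and 8 of 19 were 2-fold lower in others, with a median of -0.50. Socs3, the feedback inhibitor of cytokine signalling, stood at 346, 444 and 87.9 CPM in members, Tnfaip3, an inhibitor of NF-kappaB, at 37.5, 119 and 20.7, and Tnfaip6, a hyaluronan-binding protein, at 839, 921 and 168. For these 3 genes the AngII_VWR level was also below Vehicle. Of 9 measured interferon-response genes 5 were 2-fold lower, with a median of -1.04 in members and -0.67 in others. Isg15 stood at 76.7, 63.7 and 10.8 CPM in members and 78.6, 56.7 and 26.8 in others. Of 29 digestion-response genes 6 were 2-fold lower in members and 5 in others, with medians of -0.31 and -0.26; their part in these differences was not tested. Dbp, a clock output gene whose level depends on the time of day, stood at 136, 250 and 54.7 CPM.

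Among genes higher in AngII_VWR members, Sdf2l1, a chaperone partner in the endoplasmic reticulum, stood at 64.2, 39.3 and 129 CPM. Of 18 unfolded-protein-response genes 17 were above AngII and 3 by 2-fold, with a median of 0.56 in members and 0.55 in others; in AngII over Vehicle 17 of 18 were below, with a median of -0.46. Mmp3, a matrix metalloproteinase, stood at 560, 679 and 1973 CPM in members and at 391.98, 447 and 1225 in others. Rgs5 was 4.51-fold higher in members (3.99 to 5.12) and 2.17-fold higher in others. The thyroid hormone transporter Slc16a10 stood at 17.4, 12.0 and 30.6 CPM in members and 16.3, 11.3 and 30.7 in others, and with Slc7a5, an amino acid and thyroid hormone transporter, made the 2 of 14 measured thyroid genes past 2-fold. The C1q gene C1qa was higher by a log2 ratio of 1.35 in members and 2.10 in others; 4 of 6 measured macrophage markers passed 2-fold in members and 6 of 6 in others.

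Some of the largest ratios came from few cells. Spp1 (osteopontin) stood at 0, 4.39 and 109 CPM in members, yet 3.35% of AngII_VWR members held a UMI and 10 cells held 97.4% of its UMIs. Saa3, an acute-phase protein, stood at 0.808, 14.1 and 139 CPM, with 91.8% of its AngII_VWR UMIs in 10 cells. Lsmem1, by contrast, stood at 17.0, 22.2 and 153 CPM, with a UMI in 12.6%, 20.6% and 40.7% of members. The counting intervals of such sums do not cover the spread between cells.

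**Figure D5:**
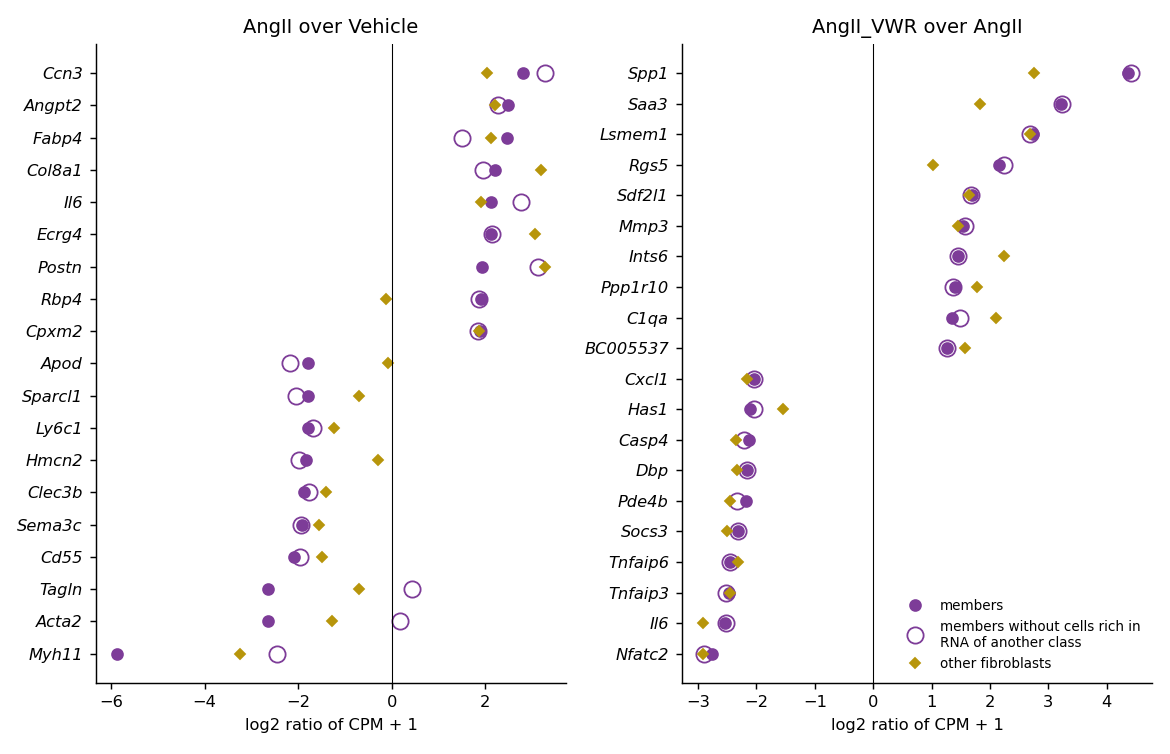
Log2 ratio of CPM + 1 (horizontal axes) of AngII over Vehicle and of AngII_VWR over AngII for genes with the largest ratios in members: filled circles are members, open circles are members without cells rich in RNA of another class, and diamonds are other fibroblasts. Acta2 and Tagln turn sign when those cells are left out, and Rbp4 is at 1.90 in members and -0.13 in others.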

How the data were processed

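Single-cell RNA was counted in 3 libraries, 1 per group of 3 pooled mice. The deposited matrices hold UMI counts per gene and barcode, made with Cell Ranger 7.0.1 (Vehicle and AngII) and 7.1.0 (AngII_VWR) per the file headers, on mm10 per the submitters' processing notes; the values are raw. Members and gene lists were chosen with earlier results of these data known. UMIs were summed per class of cells and library and divided by the sum to give CPM. Ratios are log2 of CPM + 1, and intervals are exact Poisson, conditional or Clopper-Pearson intervals at 95%.

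A gene was called at 2-fold with at least 20 CPM and 10 UMIs in the higher sum, with the 10 genes of the rule left out. The named genes are the 10 of the rule, the 15 highest and 10 lowest in members by their least favourable library (at least 50 CPM and 20 UMIs), the 10 highest and lowest in each contrast within members (at least 100 CPM and 50 UMIs), up to 4 per list with the largest ratio, and the BMP and thyroid receptors, ligands and deiodinases. Mitochondrial, ribosomal, haemoglobin, immunoglobulin and unnamed genes were not named. A few genes that this choice takes in are not reported here.

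Neighbours came from 2000 variable genes, 30 principal components and 15 neighbours, clusters from Leiden at resolution 0.8 (scanpy 1.11.5, leidenalg 0.10.2 in Python 3.11.15), and intervals from scipy 1.17.1. Scrublet's own threshold marked 0 barcodes in AngII_VWR, so the highest scores were marked at 0.8% per 1000 barcodes; marked cells were kept, and removed only as an alternative. The calling and thinning steps were tested on simulated data. Libraries held 10515 to 19633 barcodes.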

Additional observations from a re-analysis of the deposited data

Results flagged for a closer look

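For 8 genes past 2-fold in members, with at least 100 CPM and 50 UMIs in the higher library, the ratio in other fibroblasts of the same libraries had the opposite sign. For some of them it was small there. Rbp4, Clu and Pthlh were at -0.13, 0.12 and 0.15 in others for AngII over Vehicle, where the median of all genes was -0.09. In each case the difference between members and others was not tested, since each group has 1 library. All values are log2 ratios of CPM + 1, AngII over Vehicle unless said.

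Rbp4, the retinol carrier, was at 1.90 in members and -0.13 in others, and at 1.87 in members without cells rich in RNA of another class. Clu, a secreted chaperone, was at -1.45 in members and 0.12 in others, with 269, 98.2 and 125 CPM in Vehicle, AngII and AngII_VWR members. Lbp, the endotoxin-binding protein, was at -1.36 in members and 0.29 in others. Pthlh, a hormone related to parathyroid hormone, was at -1.35 in members and 0.15 in others. For Clu, Lbp and Pthlh the member values without cells rich in other RNA were -1.53, -1.51 and -1.62.

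For Lyz2, Cd74, Cxcl2 and Fabp4 the sign in members turned when those cells were left out. Other fibroblasts without such cells were at 0.55, 1.57, 1.22 and 0.66 for these genes, the same sign as the members without them. Lyz2, lysozyme, was at -1.56 in members and 0.27 in others, and at 0.38 in members without them. Cd74, the class II invariant chain, was at -1.06 in members and 1.06 in others, and at 0.49 without them. Cxcl2, a neutrophil chemokine, was at -1.09 in members and 0.73 in others, and at 0.78 without them. Fabp4, in AngII_VWR over AngII, was at -1.01 in members and 0.36 in others, and at 1.14 in members without them; 10 cells held 89.1% of its AngII member UMIs.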

How the results depend on the processing

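Of 105 results under alternatives, 65 stayed within the limits set for the main value, 39 moved and 1 reversed. The reversed one was the share of members, AngII over Vehicle, at 0.862 with Smoc1 left out. AngII_VWR over AngII for the same share was 7.07 at 2000 UMIs, 2.09 without thinning, 2.04 with at least 2 markers and 13.8 with at least 4. With 2 of the other 4 markers required, it was 1.96, 1.87, 3.50 and 2.06 with Esm1, Dio2, Smoc1 or Cytl1 left out. With Gdf10 left out it was 4.565, within the limits of the main value. It stayed above 1 in each. In cells of at least 5000 UMIs the marker levels of AngII_VWR over AngII were 4.54 for Dio2, 1.48 for Gdf10 and 2.67 for Cytl1.

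Counts of genes past 2-fold moved with the filter and the cells. With no CPM filter, 85 genes were higher and 73 lower in members, 390 higher and 459 lower in AngII over Vehicle, and 462 and 299 in AngII_VWR over AngII. With at least 100 CPM these counts were 16 and 9, 63 and 49, and 18 and 42. With a pseudocount of 10, 26 were higher and 14 lower in members, 93 lower in AngII, and 43 higher and 69 lower in AngII_VWR. With at least 4 markers, 62 were lower in members, 346 higher and 592 lower in AngII, and 291 and 219 in AngII_VWR. Thinned to 5000 UMIs, 313 were lower in AngII and 160 higher in AngII_VWR. With the highest Scrublet scores removed, 46 were lower in members. The share of members among a member's nearest cells was 31.1% when cells were thinned to 2000 UMIs, with members again those of full depth. The fullest joint cluster held 57.9% of members there and with 30 neighbours. The cause of these moves was not tested, except that a stricter filter leaves fewer genes.

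No paired analysis was possible because each group has 1 library. Leaving out a library was not done, for the same reason. Depth was lowest in AngII_VWR, and few Vehicle members were available.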

Other observations

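Members with Esm1 and members with Cytl1 carried different levels of several genes, a split chosen after the data were seen. Since a member needs 3 of 5 markers, the rule itself sets how often the pair meets in members; over all fibroblasts at 5000 UMIs Esm1 was found in 6.49%, 8.33% and 16.3% of the cells with Cytl1 and in 2.75%, 2.19% and 8.73% of those without. Esm1 without Cytl1 was found in 37.1%, 28.2% and 49.2% of members in Vehicle, AngII and AngII_VWR, Cytl1 without Esm1 in 27.5%, 15.6% and 13.3%, and both in 7.19%, 8.02% and 5.14%. Sfrp4, a secreted Wnt modulator, stood at 2378, 1607 and 2602 CPM in the cells with Esm1 and at 926, 243 and 745 in those with Cytl1. Igf1, the insulin-like growth factor, stood at 243, 472 and 512 CPM against 121, 189 and 203. In the other direction, the laminin chain Lama2 stood at 1168, 1618 and 1694 CPM in the cells with Cytl1 and at 590, 759 and 857 in those with Esm1, and Serpine2 at 213, 394 and 314 against 67.1, 111 and 131. In Vehicle 41.3% of the cells with Cytl1 and 9.68% of those with Esm1 were rich in RNA of another class; the part of that RNA in the split was not tested.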
